A study of Mus musculus with 27 samples.

Results

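Gene expression in the cortex of Tbr2 conditional knockout (cKO) mouse embryos was compared between embryonic day 16 (E16, 6 arrays) and embryonic day 13 (E13, 5 arrays). These 11 arrays were all those of a series of 27 whose titles gave the conditional knockout. The comparison covered 10663 genes with a probe detected on at least 5 of the 27 arrays. Some of these genes were detected on no cKO array. Each array was an Illumina mouse BeadChip hybridised with biotin-labelled cRNA made from total RNA. The other arrays of the series held 6 samples called E13 embryo, 5 called E16 embryo and 5 of green fluorescent (GFP+) Tbr2-lineage neurons sorted from cortex at postnatal day 2. The signal columns of the 2 embryo groups carry the letters WT, read here as wild type, and their labels name no tissue and no knockout. Both cKO groups are labelled with the same conditional knockout, so an effect of it that was equal on all their arrays would not appear in their difference. As described below, 1 array of each stage sat at embryo levels, so such effects need not cancel in full. Which Cre line drove the deletion, which part of the gene was removed, whether embryos were pooled, the strain and the sex are not stated in the labels. The same extraction text, which mentions sorted GFP+ neurons, stands with every sample, although the titles of the cKO samples name embryonic cortex and no sort. Where nothing says that samples came from separate animals, p-values measure only the spread between these samples, which may be technical.

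Eomes encodes Tbr2, a T-box transcription factor of the intermediate progenitors, which divide away from the ventricular surface and give rise to excitatory neurons. Radial glia are the stem cells of the developing cortex and divide at the ventricle. Early in corticogenesis they give rise to subplate neurons and to deep-layer neurons, and later to upper-layer neurons, before they turn to making glia. Cajal-Retzius cells are early neurons that lie at the surface. Between these stages cortical neurons migrate, send out axons and begin to assemble channels and synapses.

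Eomes (Entrez Gene 13813, chromosome 9) was read out by 2 probes, and the files do not say whether either lies in the deleted part, so its level is no check of the deletion. The brighter probe had normalised log2 signals of 11.47, 11.35, 11.37, 11.54 and 11.57 on E13 arrays 1 to 5. It ran from 10.21 to 11.56 on the 6 E16 arrays, with a median of 11.16. Array 3 was the lowest at E16 and array 6 lay within the range of E13. The log2 change from E13 to E16 was -0.43 ± 0.19 (SE; 95% interval -0.83 to -0.024) and did not pass (adjusted p = 0.11, limma with Benjamini-Hochberg adjustment over all 10663 genes, as for every adjusted p here). The second probe changed by -0.76 (95% interval -1.21 to -0.32) and passed in the same fit over all kept probes (adjusted p = 0.012). Mean Eomes signals of the embryo groups were 11.20 at E13 and 10.45 at E16, and those of the cKO groups 11.46 and 11.04, so the mRNA that these probes detect was present in every cKO array. In a bulk sample such as these, fewer cells of a type and less RNA per cell cannot be told apart.

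Before the stages are compared, 3 arrays need naming. Array numbers follow the column order of the table and serve only as names. For each cKO array, the 100 genes that differed most between cKO and embryo at its stage were found in a fit that left that array out, and the array was placed on a line where 0 is the embryo mean and 1 is the mean of the other cKO arrays. E13 array 2 lay at 0.0051 and E16 array 3 at -0.019, while the other cKO arrays lay between 1.01 and 1.38. E13 array 2 and E16 array 3 thus sat at embryo levels for these genes, which goes against their labels, and results are given with and without them. E13 array 4 had the highest E13 mean for all 8 marker lists of cells outside the excitatory lineage, described at the end. Raw median signals of the cKO arrays were between 8.51 and 16.8, and 36.9% to 39.8% of the 45281 probes were above background. The number of arrays limits the precision.

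**Figure D1:**
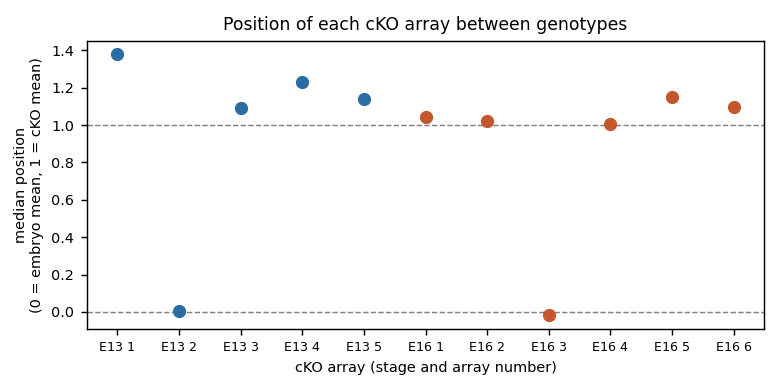
Median position of each of the 11 cKO arrays over 100 genes, on a scale where 0 is the mean of the embryo arrays of the same stage and 1 the mean of the other cKO arrays. E13 array 2 (0.0051) and E16 array 3 (-0.019) lie at the embryo level, and the others between 1.01 and 1.38.

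From E13 to E16, 1242 genes rose and 1530 fell in the cKO cortex. These were 11.6% and 14.3% of the 10663 genes tested, together 26%, and the median change over all genes was -0.0081 on the log2 scale. Counts in the gene lists below are to be read beside these shares. At least 2-fold differences were found for 192 of the genes that rose and 390 of those that fell. The 2 groups of arrays did not overlap for 632 genes higher at E16 (5.93% of all tested) and 825 lower (7.74%), and 1403 of these also passed the test. Without E13 array 2 and E16 array 3, 1031 genes rose (9.67%) and 1371 fell (12.9%), of which 958 and 1275 had made the same call with all 11 arrays. Arrays of the same stage correlated at 0.971 to 0.990 at E13 and 0.976 to 0.987 at E16, and arrays of different stages at 0.947 to 0.972, over all measured genes as a description. The balance of the calls depended on the scaling, since 44.8% of calls were rises after quantile normalisation and 30.6% (582 rises and 1323 falls) when each array was scaled to a common median.

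**Figure D2:**
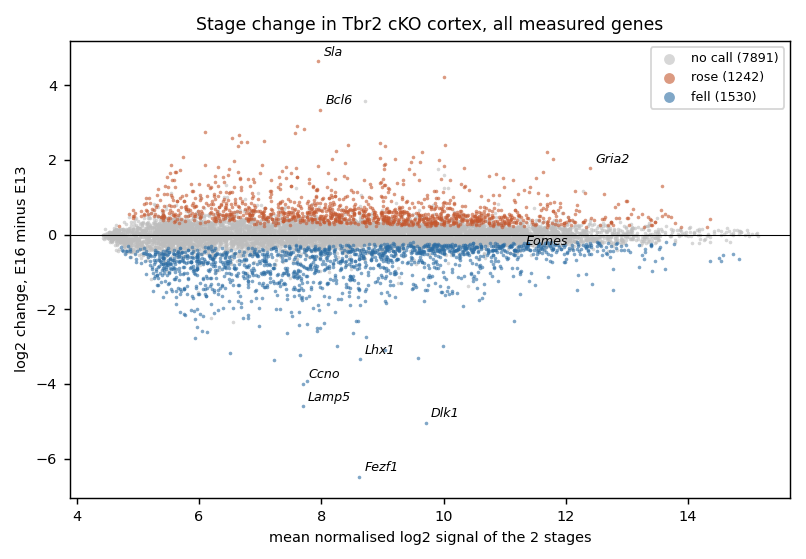
Log2 change from E13 to E16 (y axis) against the mean normalised log2 signal of both stages (x axis) for 10663 genes in Tbr2 cKO cortex. Genes that rose (1242) and fell (1530) at an adjusted p under 0.05 are coloured, and the largest changes are falls, down to -6.48 for Fezf1.

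The steepest changes were ranked only among genes that passed and whose stages did not overlap, with predicted genes left out. The steepest fall was that of Fezf1 (Entrez Gene 73191, chromosome 6), a zinc finger transcription factor of the embryonic forebrain. Its normalised log2 signals were 12.20, 11.64, 11.52, 11.86 and 12.09 on E13 arrays 1 to 5. It ran from 4.69 to 7.70 on the 6 E16 arrays, with a median of 4.97. All E13 arrays were far above all E16 arrays, and only E16 array 3, at 7.70, was above background at E16. The log2 change was -6.48 ± 0.53 (adjusted p = 1.3e-09). Without E13 array 2 and E16 array 3 no E16 array held Fezf1 above background, and it was at least 73.3-fold lower at E16.

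Dlk1 (Entrez Gene 13386, chromosome 12), an imprinted transmembrane relative of the Notch ligands, came next. Its signals were 12.49, 10.90, 12.42, 12.57 and 12.75 on E13 arrays 1 to 5. It ran from 6.68 to 7.79 on the 6 E16 arrays, with a median of 7.29. E13 array 2 was the lowest of its stage, and the stages were still more than 3 log2 units apart. The change was -5.03 ± 0.37 (adjusted p = 3.2e-10), 32.7-fold, and its 2 probes gave -5.09 and -5.03.

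Other steep falls were found for genes of several functions. Lamp5, a membrane protein of neurons, fell 24.2-fold (-4.60 ± 0.32, 3 of 6 E16 arrays above background), and Crabp2, a cellular retinoic acid binding protein, 15.2-fold (-3.93 ± 0.25, 4 of 6 above background). Transcription factors were among the 12 steepest. The LIM homeobox gene Lhx1 fell 10.1-fold (-3.33 ± 0.33), the homeobox gene Uncx 9.81-fold (-3.29 ± 0.39), and Dbx1, a homeobox gene of progenitors at the borders of the pallium, at least 5.12-fold (adjusted p = 1.2e-10), since none of the E16 arrays held it above background. Cdkn1a, the cyclin-dependent kinase inhibitor p21, fell 8.46-fold (-3.08 ± 0.24). Slc27a2, a fatty acid transporter and acyl-CoA synthetase, fell 10.3-fold (-3.36 ± 0.35), with E13 array 2 at 6.93 against 8.96 to 9.81 on the other E13 arrays. Nxph1, a neurexin ligand, fell 9.35-fold and Chst8, a sulfotransferase, 7.94-fold.

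Ccno and Mcidas are neighbouring genes on chromosome 13, and both are known for the differentiation of multiciliated cells. Ccno (Entrez Gene 218630) had signals of 10.13, 9.76, 9.28, 9.44 and 9.91 on E13 arrays 1 to 5. It ran from 5.07 to 6.17 on the 6 E16 arrays, with a median of 5.81. Its change of -3.99 ± 0.23 had the smallest adjusted p of the steep falls named here (adjusted p = 8.3e-12), and the difference was 15.9-fold with 3 of 6 E16 arrays above background. Mcidas (Entrez Gene 622408) had signals of 7.88, 7.56, 6.89, 7.34 and 7.51 on E13 arrays 1 to 5. It ran from 4.66 to 5.31 on the 6 E16 arrays, with a median of 4.72. No E16 array held Mcidas above background, so it was at least 3.26-fold lower at E16 (adjusted p = 2.9e-10).

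The steepest rise was that of Sla (Entrez Gene 20491, chromosome 15), an adaptor protein related to Src. Its signals were 4.87, 5.63, 6.58, 5.88 and 5.20 on E13 arrays 1 to 5. It ran from 9.38 to 10.66 on the 6 E16 arrays, with a median of 10.36. It was above background on 2 of 5 E13 arrays and on all 6 at E16, and E16 array 5 was the lowest of its group. The change was 4.64 ± 0.38 (adjusted p = 1.7e-09), 24.9-fold by this probe, while another of its 3 probes changed by 1.22 in the same direction and the mean of all its probes by 2.43.

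Bcl6 (Entrez Gene 12053, chromosome 16), a transcriptional repressor that promotes neuronal differentiation, followed. Its signals were 6.18, 7.22, 6.23, 6.04 and 5.85 on E13 arrays 1 to 5. It ran from 9.13 to 10.68 on the 6 E16 arrays, with a median of 9.44. The highest E13 value, 7.22, was that of array 2, and the highest E16 value, 10.68, that of array 3. The change was 3.34 ± 0.29 (adjusted p = 3.2e-09), 10.1-fold, and 3.36 without both arrays.

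Inhba (Entrez Gene 16323, chromosome 13) encodes the subunit of activin A, a secreted ligand of the TGF-beta family. Its signals were 5.11, 5.12, 6.32, 5.00 and 5.71 on E13 arrays 1 to 5. It ran from 7.69 to 8.12 on the 6 E16 arrays, with a median of 7.95. The 6 E16 arrays were tightly grouped and the E13 arrays were scattered near background, with 2 of 5 above it. The change was 2.48 ± 0.19 (adjusted p = 3.4e-10), 5.59-fold.

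The rest of the 12 steepest rises included genes of ion transport and signalling. Cacng5, an auxiliary subunit of AMPA receptors, rose 7.54-fold (2.91 ± 0.26). Abcc8, the sulfonylurea receptor of potassium channels gated by ATP, rose 7.07-fold (2.82 ± 0.28), and Slc4a4, a sodium bicarbonate cotransporter, 6.4-fold (2.68 ± 0.28). Nos1, the neuronal nitric oxide synthase, rose 5.71-fold and Rasgrf1, a calcium-dependent activator of Ras, 5.54-fold. The transcription factor Tfap2d rose 6.55-fold (2.71 ± 0.36), with E13 array 2 at 7.69 against 5.47 to 6.36 on the other arrays of its stage. Ly6g6e, a member of the Ly6 family, rose 6.01-fold, and Rlbp1, a retinaldehyde binding protein, 5.44-fold.

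**Figure D3:**
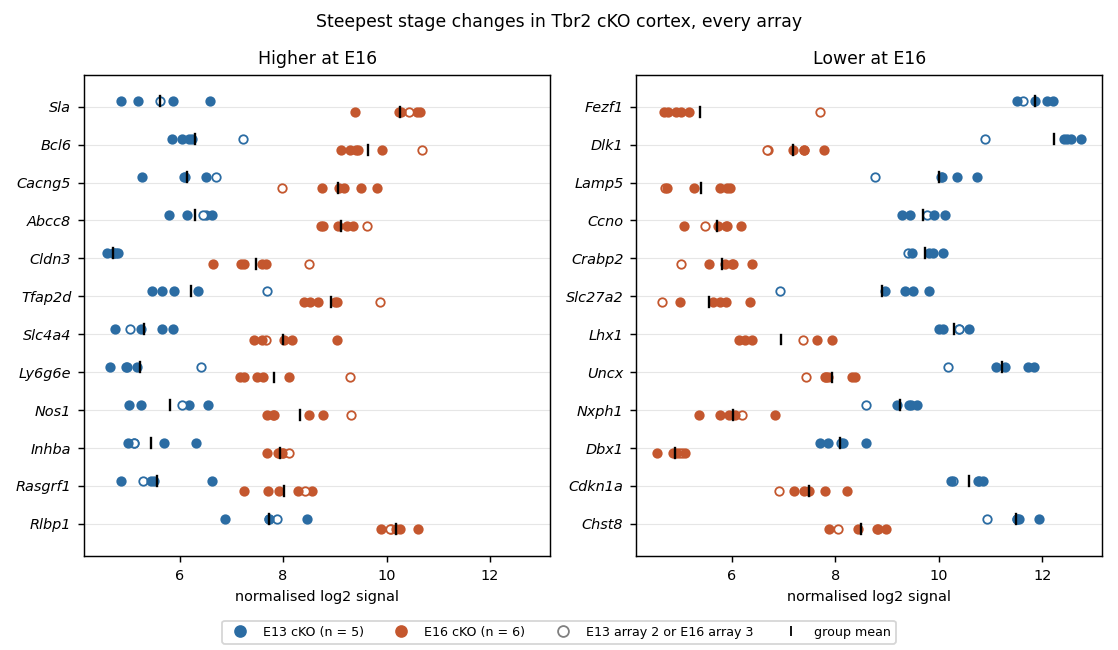
Normalised log2 signal (x axis) of the 12 steepest rises and 12 steepest falls on every cKO array, with E13 in blue (n = 5), E16 in red (n = 6), E13 array 2 and E16 array 3 as open circles and group means as bars. Only genes that passed and whose stages did not overlap could enter, so the lack of overlap in all 24 follows from the selection. Fezf1 falls from between 11.52 and 12.20 to between 4.69 and 7.70.

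A few genes were above background at 1 stage only. Of the 10663 genes tested, 12 rose and were above background on all 6 E16 arrays and on no E13 array. Cldn3, a tight junction claudin, was at least 3.49-fold higher at E16, the cation channel gene Trpc4 at least 2.57-fold, Grid2ip, which binds the delta glutamate receptor, at least 2.16-fold, the zinc finger gene Zfp385b at least 1.83-fold and the desmosomal cadherin Dsg2 at least 1.76-fold. In the other direction 51 genes were above background on all 5 E13 arrays and on no E16 array. Beside Dbx1 and Mcidas these included Dynlrb2, a dynein light chain found in cilia, which was at least 3.03-fold higher at E13, Tmem255a, at least 3.02-fold, and Elfn1, a synaptic adhesion protein, at least 2.68-fold. Bounds are given against the background limit of the arrays that lacked the signal.

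For some other genes described here, the probe was above background on part of the arrays of 1 stage, so that the lower mean includes values near background. At E13 the probe was above background on 1 of 5 arrays for Ly6g6e, Rasgrf1 and Slc4a4, on 2 of 5 arrays for Kcnk1 and Pcdh8, on 3 of 5 arrays for Cdh8, Crym, Nos1 and Npy1r, on 4 of 5 arrays for Cacng5, Fgfr1, Junb, Nbl1, Rab3c and Tfap2d. At E16 the probe was above background on 1 of 6 arrays for Mylpf, Sox3 and Tnnt1, on 2 of 6 arrays for Isl1, Lhx5, Nbl1, Npy and Sst, on 3 of 6 arrays for Hopx, Ntng1 and Olig3, on 4 of 6 arrays for Otx2 and Slc27a2, on 5 of 6 arrays for Dll3, Ebf2, Grin3a, Lhx9, Meg3 and Nxph1.

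For a few genes another kept probe changed by far less than the brightest, or the other way. This probe changed by 0.27 for Trpc4, -0.0006 for Zfp385b, -0.18 for Rrm2, -0.052 for Lig1, 0.016 for Nfic, -0.035 for Dcc, 0.20 for Rab3c, -0.16 for Pdyn, 0.056 for Nbl1, -0.013 for Pkm and 0.22 for Chd4. In the same direction but by less, another probe changed by 0.99 for Nos1, 0.65 for Rasgrf1 and 0.50 for Mef2c. Among falls such a probe changed by -0.35 for Ntng1, -0.47 for Plxnd1 and -0.52 for Grb10. The changes given for these genes are those of the brightest probe.

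Genes of cell division fell. Of 19 measured mitosis genes 18 fell and none rose, with a median log2 change of -1.41 beside -0.0081 over all genes and 14.3% of all genes falling. Without E13 array 2 and E16 array 3, and without E13 array 4, 18 fell as well. Birc5, the survivin subunit of the chromosomal passenger complex, had signals of 11.08, 10.72, 10.68, 10.94 and 10.68 on E13 arrays 1 to 5. It ran from 8.91 to 9.67 on the 6 E16 arrays, with a median of 9.14. Every E16 array was below every E13 array by at least 1 log2 unit, with a change of -1.61 ± 0.23 (adjusted p = 8.3e-06). Nusap1 and Prc1, which bundle spindle microtubules, fell by 1.60 each on the log2 scale. Ube2c, the ubiquitin conjugating enzyme of the anaphase-promoting complex, was above background on all E13 arrays and on no E16 array, at least 2.30-fold lower at E16 (adjusted p = 6.6e-07). The exception, chosen after its values were seen, was the mitotic kinase gene Plk1. Its probe read 9.40, 9.79, 5.81, 9.54 and 5.31 on E13 arrays 1 to 5. It ran from 7.29 to 8.29 on the 6 E16 arrays, with a median of 7.80, and its change of -0.14 ± 0.80 did not pass (adjusted p = 0.92). E13 arrays 3 and 5 were near background for this probe and the other E13 arrays more than 3 log2 units higher.

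Promoters of the mitosis genes that fell are shown because these genes moved together and because their promoters are known for a shared layout, with a cell cycle genes homology region (CHR) near the start site and CCAAT boxes upstream of it. The sequences are those of RefSeq for the build GRCm38.p6, from 250 bases before to 50 after the annotated start, written 5′ to 3′ on the gene's strand. Capitals mark CHR letters (TTTGAA) and CCAAT letters, searched on both strands, so that TTCAAA and ATTGG are the same motifs on the opposite strand. Shown are the 4 genes with the largest falls among the 11 fallen mitosis genes with 1 listed promoter that holds both motifs.
Ube2c, chr2:164769679-164769978, plus strand: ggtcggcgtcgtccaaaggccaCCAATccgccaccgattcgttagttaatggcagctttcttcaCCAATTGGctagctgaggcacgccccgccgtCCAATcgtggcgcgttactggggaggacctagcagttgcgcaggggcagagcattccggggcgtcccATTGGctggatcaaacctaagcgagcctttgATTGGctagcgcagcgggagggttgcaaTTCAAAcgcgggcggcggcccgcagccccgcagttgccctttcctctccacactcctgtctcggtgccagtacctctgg
Top2a, chr11:99024140-99024439, minus strand: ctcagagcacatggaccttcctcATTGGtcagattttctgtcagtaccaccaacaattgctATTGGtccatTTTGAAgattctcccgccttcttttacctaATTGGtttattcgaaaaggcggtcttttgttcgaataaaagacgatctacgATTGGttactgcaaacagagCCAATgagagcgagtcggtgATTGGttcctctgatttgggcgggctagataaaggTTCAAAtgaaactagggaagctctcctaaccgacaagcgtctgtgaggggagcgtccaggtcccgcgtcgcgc
Cdk1, chr10:69352863-69353162, minus strand: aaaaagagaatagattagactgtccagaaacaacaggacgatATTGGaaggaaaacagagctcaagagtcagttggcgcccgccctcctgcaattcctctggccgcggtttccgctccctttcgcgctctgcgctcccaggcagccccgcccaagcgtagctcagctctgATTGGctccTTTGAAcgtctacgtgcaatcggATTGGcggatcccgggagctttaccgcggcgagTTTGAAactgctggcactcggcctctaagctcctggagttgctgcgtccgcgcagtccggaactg
Cdc20, chr4:118437294-118437593, minus strand: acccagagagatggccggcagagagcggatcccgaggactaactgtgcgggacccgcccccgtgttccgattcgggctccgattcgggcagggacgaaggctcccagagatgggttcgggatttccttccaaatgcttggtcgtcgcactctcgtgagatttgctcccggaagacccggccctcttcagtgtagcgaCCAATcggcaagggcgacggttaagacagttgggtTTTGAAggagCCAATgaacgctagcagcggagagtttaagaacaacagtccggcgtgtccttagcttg

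Top2a, the DNA topoisomerase of chromosome segregation, had signals of 10.94, 10.71, 10.89, 10.98 and 11.06 on E13 arrays 1 to 5. It ran from 8.90 to 9.92 on the 6 E16 arrays, with a median of 9.19, a change of -1.56 ± 0.30 (adjusted p = 0.0003). The cyclin-dependent kinase that drives entry into mitosis, Cdk1, changed by -1.54 ± 0.25 and Cdc20, the activator of the anaphase-promoting complex, by -1.52 ± 0.27. All 3 were lower on every E16 array than on any E13 array. The promoters of these genes hold a CHR at -23 (Top2a), -15 (Cdk1) and -18 (Cdc20) from the start, and that of Ube2c at -29.

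Among the 18 mitosis genes that fell, 15 had a promoter in the RefSeq table. Both motifs were found in 13 of their 16 promoters, or 81.2%. By comparison 6.95% of all 32851 promoters held both, as did 4.76% of the 11137 promoters of measured genes, 8.67% of those of genes that fell and 3.06% of those of genes that rose. The letters of the E2F site (TTTCCCGC, TTTGGCGC or TTTCGCGC) were found in 6 of 17 promoters of the replication genes that fell, or 35.3%, and in 3.38% of the promoters of measured genes. A match describes the letters of this window and is neither a bound site nor a cause.

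DNA replication genes fell too. Of 25 measured, 15 fell and none rose, with a median of -0.56, and 14 fell without E13 array 2 and E16 array 3. Cdc45, part of the replicative helicase, had signals of 9.37, 8.77, 8.96, 9.28 and 9.03 on E13 arrays 1 to 5. It ran from 7.44 to 8.24 on the 6 E16 arrays, with a median of 7.87, a change of -1.21 ± 0.17 (adjusted p = 5.0e-06), with no overlap between the stages. Rrm2, the small subunit of ribonucleotide reductase, changed by -1.09 ± 0.22, Uhrf1, which guides maintenance methylation of DNA, by -0.90 ± 0.27 and Lig1, the ligase that joins Okazaki fragments, by -0.89 ± 0.17.

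Among 17 cyclins, kinases and their inhibitors 7 fell and 1 rose (median -0.40). Those that fell acted in both senses on the cycle. Beside the inhibitor Cdkn1a, Ccnd1, the cyclin D1 that carries cells through G1, changed by -1.13 ± 0.28 and the transcription factor E2f1 by -1.12 ± 0.14. The member that rose was the G1 kinase Cdk6 (adjusted p = 0.026), whose probe was above background on no E13 array and on 1 of 6 E16 arrays, so no fold is given, and it did not pass without E13 array 2 and E16 array 3 (adjusted p = 0.11) or under median scaling.

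Radial glial genes moved in both directions, with 4 rising and 5 falling of 19 (median -0.38). Over all genes 11.6% rose and 14.3% fell. Vim, the intermediate filament vimentin, had signals of 11.80, 11.17, 11.29, 11.65 and 11.35 on E13 arrays 1 to 5. It ran from 9.18 to 10.17 on the 6 E16 arrays, with a median of 9.84, a change of -1.74 ± 0.22 (adjusted p = 1.2e-06) with every E16 array below every E13 array. Ptprz1, a receptor phosphatase of radial glia, went the other way. Its signals were 8.67, 8.68, 9.21, 9.19 and 8.90 on E13 arrays 1 to 5. It ran from 10.72 to 11.22 on the 6 E16 arrays, with a median of 10.87, a rise of 3.96-fold (adjusted p = 7.8e-09). Slc1a3, a glial glutamate transporter, rose by 1.49 ± 0.44 (adjusted p = 0.013) and Hopx, a homeodomain protein, fell (-1.54 ± 0.37, adjusted p = 0.0026). The remaining 10 members, among them Sox2, Pax6 and Hes5, did not pass. E13 array 4 held the highest E13 value of Slc1a3, 9.53, and without it 4 members rose and 3 fell.

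Of 16 genes of intermediate progenitors 3 rose and 7 fell (median -0.36). Dll3, a Notch ligand family member of newborn neurons, had signals of 7.51, 7.81, 7.47, 7.62 and 6.93 on E13 arrays 1 to 5. It ran from 5.46 to 6.75 on the 6 E16 arrays, with a median of 6.10, a change of -1.32 ± 0.22 (adjusted p = 6.4e-05). Dll1, the Notch ligand that newborn cells present to their neighbours, changed by -1.17 ± 0.16. Smoc1, a secreted calcium-binding protein, rose by 1.64 ± 0.28 and Sstr2, a somatostatin receptor, by 1.07 ± 0.24. At E13, array 2 held the highest Sstr2 signal (12.62, against 10.20 to 11.13 on the others), and without both arrays at embryo levels its change was 1.36.

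No Notch pathway gene rose and 5 of 16 fell (median -0.38). Besides Dlk1, Dll3 and Dll1, the Notch target Hey1 fell (-1.24 ± 0.19, adjusted p = 1.4e-05). The receptor Notch1 and the targets Hes1 and Hes5 did not pass.

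Genes known to mark early, rapidly renewing progenitors fell in 6 of 9 cases, with none rising (median -0.75). Lin28b, an RNA-binding protein that blocks the maturation of let-7 miRNAs, was above background on all 5 E13 arrays and no E16 array, at least 1.56-fold lower at E16 (adjusted p = 6.8e-08). Igf2bp1, an mRNA-binding protein regulated by let-7, changed by -1.01 ± 0.18 and the chromatin protein Hmgb2 by -1.17 ± 0.27. For both, every E16 array was below every E13 array.

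Imprinted growth genes fell in 8 of 13 cases, with none rising (median -0.99). Meg3, a long noncoding RNA from the same imprinted region as Dlk1, changed by -1.41 ± 0.27 (adjusted p = 0.00023), and Grb10, an adaptor that restrains insulin signalling, by -1.23 ± 0.19. Igf2, a fetal growth factor, changed by -1.18 ± 0.44 (adjusted p = 0.046) with E13 array 4 highest at 11.02, and did not pass without that array (adjusted p = 0.2).

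Astroglial genes did not move as 1 group: 5 rose and 2 fell of 18 (median -0.069, and 0.26 without E13 array 4). Nfix, a nuclear factor I protein that promotes glial maturation, had signals of 13.03, 12.50, 13.18, 13.11 and 12.83 on E13 arrays 1 to 5. It ran from 14.06 to 14.44 on the 6 E16 arrays, with a median of 14.20, a rise of 2.46-fold (adjusted p = 2.1e-08) with no overlap. Tnc, the extracellular matrix protein tenascin C, was above background on 5 of 6 E16 arrays and no E13 array, at least 1.36-fold higher. Gja1, the gap junction protein connexin 43, fell (-1.88 ± 0.25, adjusted p = 2.3e-06). Among 14 Sox and NFI factors 4 rose, Nfix, Nfib, Nfic and Sox4 (which did not pass without E13 array 2 and E16 array 3, adjusted p = 0.12), and 1 fell, Sox3 (-0.98 ± 0.20). None of 6 measured oligodendrocyte genes passed.

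Genes of Cajal-Retzius cells fell: 7 of 10, with none rising and a median of -1.45. Reln, the secreted glycoprotein reelin that guides the layering of neurons, had signals of 11.79, 12.29, 12.33, 12.26 and 12.90 on E13 arrays 1 to 5. It ran from 9.30 to 11.03 on the 6 E16 arrays, with a median of 9.85, a change of -2.31 ± 0.31 (adjusted p = 2.2e-06), 4.97-fold with no overlap. The transcription factor Ebf2 had signals of 10.32, 9.48, 9.80, 10.34 and 10.58 on E13 arrays 1 to 5. It ran from 5.73 to 7.83 on the 6 E16 arrays, with a median of 7.70, with array 3 lowest by more than 1.5 log2 units, and changed by -2.75 ± 0.30 (adjusted p = 1.2e-07). Lhx5, a LIM homeobox relative of Lhx1, changed by -2.25 ± 0.33. Ebf3 fell by 1.47 (adjusted p = 0.027), but its groups were each split by 1 array. Array 2 at E13 read 11.49 against 13.76 to 14.15 on the others, and array 3 at E16 read 9.24 against 12.31 to 12.82. Without those arrays Ebf3 changed by -1.41 (adjusted p = 2.8e-05), and without E13 array 4 it did not pass (adjusted p = 0.056). Tbr1, Calb2 and Ndnf did not pass. Not all genes of this list are confined to Cajal-Retzius cells. Tbr1 is also in the deep-layer list, and Ebf1, which fell, in that of ventral forebrain and interneurons.

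Genes of the layers of excitatory neurons were next. Of 17 deep-layer genes 4 rose and 8 fell (median -0.45), and of 14 upper-layer genes 7 rose and 1 fell (median 0.44). Tshz2, a zinc finger factor of deep layers, had signals of 7.88, 7.27, 7.66, 7.86 and 8.48 on E13 arrays 1 to 5. It ran from 5.15 to 6.60 on the 6 E16 arrays, with a median of 5.50, with only array 3, the highest, above background at E16, and changed by -2.23 ± 0.26 (adjusted p = 2.7e-07). The 4 probes of Tshz2 gave changes from -2.23 to -0.22. Zfpm2 changed by -1.40 ± 0.20, while Ldb2, a cofactor of LIM proteins, rose by 1.39 ± 0.21 and Crym, a thyroid hormone binding protein, by 1.28 ± 0.32. Bcl11b and Tbr1, transcription factors of deep-layer neurons, did not pass (95% intervals -0.33 to 0.24 and -0.39 to 0.67).

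Cux2, a homeodomain factor of upper-layer neurons, had signals of 9.27, 9.38, 9.28, 9.32 and 8.79 on E13 arrays 1 to 5. It ran from 10.16 to 11.15 on the 6 E16 arrays, with a median of 10.75, a rise of 2.81-fold (adjusted p = 5.0e-06) with no overlap. Mef2c, a MADS-box factor of maturing neurons, rose by 1.46 ± 0.20, with E13 array 4 highest of its stage at 10.24. Pou3f1, a POU domain factor, rose by 1.27 ± 0.16, and Inhba, described above, is the other large rise of this list. The member that fell was Plxnd1, a semaphorin receptor (-1.20 ± 0.29, adjusted p = 0.0031). Of 7 subplate genes 1 passed, Nxph4, a neurexophilin, which fell (-1.44 ± 0.25).

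Among 27 genes of migrating and differentiating neurons 6 rose and 3 fell, and 5 and 2 without E13 array 2 and E16 array 3, beside 11.6% rising and 14.3% falling over all genes, and the median, 0.14, turned to -0.029 under median scaling. Nrp1, a receptor of semaphorins, rose by 1.09 ± 0.15, with E13 array 2 lowest at 11.41. Neurod6, a bHLH factor of excitatory neurons, rose by 0.87 ± 0.27, and Dab1, the adaptor through which reelin acts, by 0.71 ± 0.15. Of 14 neuronal bHLH and Id factors 4 rose and 4 fell. The proneural gene Neurog1 fell (-0.91 ± 0.17) and Id2 rose (0.70 ± 0.20).

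**Figure D4:**
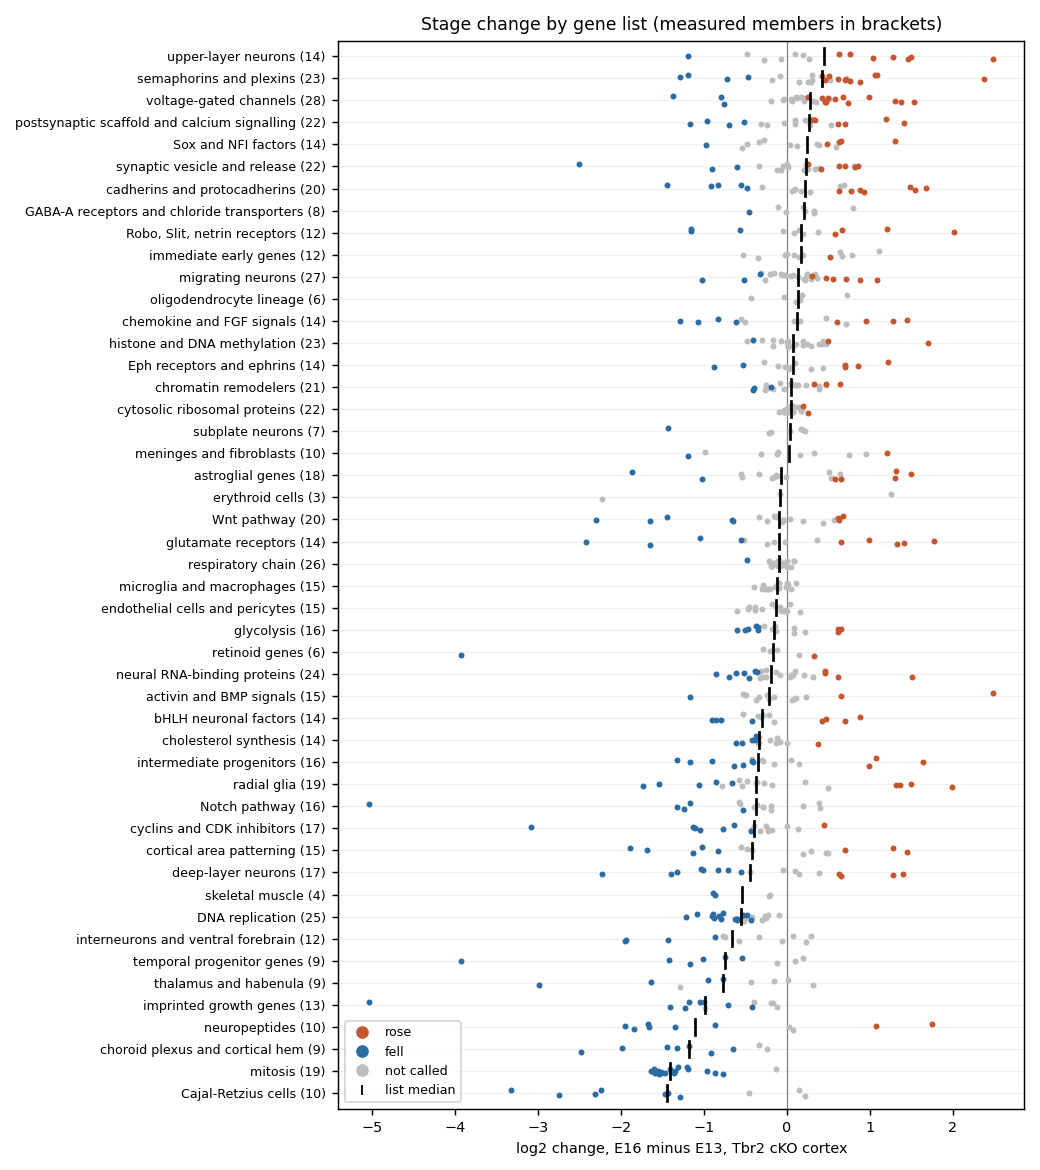
Log2 change from E13 to E16 (x axis) for the measured members of 48 gene lists, coloured by call, with the list median as a bar. Medians run from -1.45 in Cajal-Retzius genes and -1.41 in mitosis genes to 0.44 in upper-layer genes.

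Axon guidance receptors moved in both directions. Of 12 Robo, Slit and netrin genes 4 rose and 3 fell, and 1 fell without E13 array 2 and E16 array 3. Robo2, a receptor of the Slit repellents, had signals of 7.77, 9.47, 7.84, 7.92 and 8.04 on E13 arrays 1 to 5. It ran from 9.74 to 10.91 on the 6 E16 arrays, with a median of 10.05. Array 2 was the highest at E13 and array 3 the highest at E16, and the groups did not overlap. Its 7 probes gave changes from 0.12 to 2.09. The rise was 4.03-fold (2.01 ± 0.22, adjusted p = 1.2e-07), and 2.19 on the log2 scale without both arrays. Ntng2, a netrin G of the cell surface, rose by 1.21 ± 0.28 and its relative Ntng1 fell by 1.16 (adjusted p = 0.00018). Dcc, the netrin receptor, fell by 1.16 (adjusted p = 0.019) and did not pass without both arrays (adjusted p = 0.054).

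Of 23 semaphorins, plexins and neuropilins 11 rose and 4 fell (median 0.42; 9 and 4 without both arrays). Sema3c, a secreted semaphorin, had signals of 4.39, 7.47, 5.21, 4.94 and 5.28 on E13 arrays 1 to 5. It ran from 6.65 to 8.37 on the 6 E16 arrays, with a median of 7.95. Array 2 was the only E13 array above background and reached into the E16 range. The rise was 2.37 ± 0.44 (adjusted p = 0.00017) with all arrays and 2.83 without both. Sema3a rose by 1.06 ± 0.20, while the membrane semaphorin Sema6a fell (-1.29 ± 0.22).

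Among 14 Eph receptors and ephrins 4 rose and 2 fell, beside 11.6% rising and 14.3% falling over all genes. Ephb6 rose most (1.22 ± 0.15) and the ligand Efna5 fell most (-0.88 ± 0.19). Of 20 cadherins and protocadherins 7 rose and 5 fell. Cdh12 was above background on 5 of 6 E16 arrays and no E13 array, at least 1.73-fold higher. Pcdh8 rose by 1.54 ± 0.15 and Cdh8 by 1.48 ± 0.29, with E13 array 2 at 7.91 against 5.36 to 5.95 on the others for Cdh8. Cdh7 fell (-1.45 ± 0.25), with 1 of 6 E16 arrays above background.

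Glutamate receptor genes moved in both directions. Of 14 measured, 5 rose and 4 fell, with a median of -0.10, beside 11.6% rising and 14.3% falling over all genes. Gria2, the AMPA receptor subunit that limits calcium entry, had signals of 10.83, 11.81, 11.65, 11.57 and 11.71 on E13 arrays 1 to 5. It ran from 12.94 to 13.75 on the 6 E16 arrays, with a median of 13.26, a rise of 3.42-fold (adjusted p = 6.9e-08) with every E16 array above every E13 array. The AMPA subunits Gria1 and Gria3 rose by 1.32 ± 0.25 and 0.99 ± 0.20, and the NMDA subunit Grin2b by 1.41 ± 0.27. Grin3a, an NMDA subunit that lowers calcium entry, had signals of 9.0, 7.84, 9.03, 8.99 and 9.34 on E13 arrays 1 to 5. It ran from 5.02 to 8.27 on the 6 E16 arrays, with a median of 6.13, a change of -2.42 ± 0.39 (adjusted p = 3.7e-05). The kainate receptor subunit Grik1 was above background on no E16 array and at least 1.98-fold lower there (adjusted p = 2.5e-06).

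Voltage-gated and leak channels had more rises than falls, 12 and 3 of 28 (median 0.28), and 9 and 2 without E13 array 2 and E16 array 3. The shares over all genes were 11.6% rising and 14.3% falling. The potassium leak channel Kcnk2 rose by 1.37 ± 0.15 and its relative Kcnk1 by 1.3 ± 0.15, both without overlap. Kcnq5, a channel of the M current, was above background on 4 of 6 E16 arrays and no E13 array, at least 1.49-fold higher (adjusted p = 0.014). Cacna2d3, an auxiliary calcium channel subunit, fell (-1.37 ± 0.17). Of 8 genes of GABA-A receptors and chloride transport 1 passed, Gabra3, which was above background on 4 of 5 E13 arrays and no E16 array, at least 1.16-fold lower (adjusted p = 0.042), and did not pass without both arrays (adjusted p = 0.093).

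Of 22 genes of synaptic vesicles and release 6 rose and 3 fell, beside 11.6% rising and 14.3% falling over all genes. The vesicle protein Sv2b had signals of 9.43, 8.77, 9.49, 9.13 and 9.38 on E13 arrays 1 to 5. It ran from 6.06 to 7.06 on the 6 E16 arrays, with a median of 6.91, a fall of 5.71-fold (-2.51 ± 0.21, adjusted p = 1.7e-09) against the direction of most called members. Its other probe changed by -0.096. Rims1, an active zone scaffold, rose by 0.82 ± 0.15 and Rab3c, a GTPase of vesicles, by 0.85 ± 0.24. Postsynaptic and calcium signalling genes split 6 up and 4 down of 22. Camk4, a calcium-dependent kinase of the nucleus, rose by 1.41 ± 0.30 and Dlg2, the scaffold PSD-93, by 1.20 ± 0.22, while the scaffold Homer2 fell (-1.17 ± 0.19). Among 12 immediate early genes only Junb passed and rose (0.51 ± 0.15), and it did not pass under median scaling, while 1 other member fell without E13 array 2 and E16 array 3. Without E13 array 4, 2 members rose, Junb and Fos, and Fos changed by 1.57 (adjusted p = 0.036).

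Of 10 neuropeptides and their receptors 2 rose and 6 fell (median -1.11). Npy1r, a receptor of neuropeptide Y, rose by 1.75 ± 0.25 and Sstr2 is described above. The opioid precursor Pdyn was above background by its brighter probe on all 5 E13 arrays and no E16 array, at least 2.62-fold lower (adjusted p = 5.0e-05), while its other probe was above background on 1 E16 array. Adcyap1, the precursor of the peptide PACAP, fell (-1.68 ± 0.33). Adcyap1 read 8.44 on E13 array 2 and 10.40 to 10.50 on the other E13 arrays. Sst and Npy, peptides of interneurons, fell with all arrays (adjusted p = 0.023 and adjusted p = 0.021) and did not pass without E13 array 4 (adjusted p = 0.1 and adjusted p = 0.098).

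Genes that pattern the cortex into areas fell in 5 and rose in 3 of 15 cases, beside 14.3% falling and 11.6% rising over all genes. Dmrt3, a doublesex-related factor of the medial cortex, had signals of 9.18, 9.01, 8.56, 9.04 and 8.70 on E13 arrays 1 to 5. It ran from 6.23 to 7.67 on the 6 E16 arrays, with a median of 7.04, a change of -1.90 ± 0.21 (adjusted p = 1.6e-07) with no overlap. Its relative Dmrta1 was above background on no E16 array and at least 2.03-fold lower there. Etv5, an Ets factor induced by FGF signals, was above background on all 6 E16 arrays and no E13 array, at least 1.53-fold higher.

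Wnt pathway genes fell in 5 and rose in 3 of 20 cases, and in 4 and 1 without E13 array 2 and E16 array 3, beside 14.3% falling and 11.6% rising over all genes. Tcf7l1, a transcription factor that represses Wnt targets, had signals of 10.27, 9.26, 9.67, 10.05 and 9.48 on E13 arrays 1 to 5. It ran from 6.76 to 7.94 on the 6 E16 arrays, with a median of 7.59, a fall of 4.94-fold (adjusted p = 4.7e-07). The ligand Wnt7a, made by cortical progenitors, changed by -1.65 ± 0.25. Among 14 chemokine and FGF genes 4 rose and 4 fell. Fgfr1, an FGF receptor, rose by 1.28 ± 0.16, and the chemokine receptor Cxcr4 fell (-1.29 ± 0.22). The ligand Fgf9 was above background on 4 of 5 E13 arrays, all but array 2, and on no E16 array, at least 1.22-fold lower (adjusted p = 0.00067). Of 15 activin and BMP genes 2 rose, Inhba and the receptor Acvr1 (0.64 ± 0.12), and 1 fell (2 without both arrays), the BMP antagonist Nbl1 (-1.17 ± 0.32). Nbl1 was at 4.73 on E13 array 2 and between 6.46 and 7.75 on the other E13 arrays. In the retinoid list Crabp2 fell and the receptor Rarg, above background on 3 of 6 E16 arrays and no E13 array, was at least 1.06-fold higher (adjusted p = 0.037), a call that did not hold without both arrays (adjusted p = 0.066).

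Few genes of histone and DNA methylation passed, and genes of chromatin remodelling and RNA binding moved in both directions. Over all genes 11.6% rose and 14.3% fell. Of 24 neural RNA-binding proteins 4 rose and 7 fell, and 3 and 5 without E13 array 2 and E16 array 3. Rbfox1, a splicing factor of neurons, had signals of 10.63, 11.15, 10.80, 10.63 and 10.62 on E13 arrays 1 to 5. It ran from 11.96 to 12.70 on the 6 E16 arrays, with a median of 12.20, a rise of 2.84-fold (adjusted p = 1.7e-08), while the splicing factor Nova2 fell (-0.86 ± 0.15). Of 23 histone and DNA methylation genes 2 rose and 1 fell, and 4 rose and none fell without both arrays. Prdm16, a chromatin regulator of radial glia, had signals of 6.70, 6.51, 6.34, 6.68 and 6.35 on E13 arrays 1 to 5. It ran from 7.87 to 8.77 on the 6 E16 arrays, with a median of 8.11, a rise of 3.24-fold (adjusted p = 4.4e-08) with no overlap. Of 21 chromatin remodelling genes 3 rose and 3 fell, shares near those over all genes, and 3 and 1 without both arrays. Among them were Smarca2, a Brahma ATPase, rising by 0.64 ± 0.13 and Chd4 falling by 0.41 (adjusted p = 0.02).

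Few ribosomal and respiratory chain genes passed. Of 22 cytosolic ribosomal proteins 2 rose, Rpl22 (0.25 ± 0.079) and Rps14 (0.19 ± 0.066), and under median scaling neither passed and the median turned from 0.046 to -0.15. Of 26 respiratory chain genes 1 fell, Ndufb7 (-0.48 ± 0.15), and none rose. Without E13 array 2 and E16 array 3 neither Ndufb7 (adjusted p = 0.053) nor Rps14 (adjusted p = 0.081) passed. Glycolysis genes fell in 6 and rose in 3 of 16 cases, and in 4 and 3 without E13 array 2 and E16 array 3. Ldhb, a lactate dehydrogenase, rose by 0.65 ± 0.15. Pkm, the pyruvate kinase, fell by 0.60 (adjusted p = 0.045) and did not pass without both arrays (adjusted p = 0.0504) or without E13 array 4 (adjusted p = 0.11). Of 14 genes of cholesterol synthesis 5 fell and 1 rose (none without E13 array 4), the steepest fall being that of Ebp, a sterol isomerase (-0.62 ± 0.081), with the 5 E13 arrays between 8.98 and 9.01.

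Markers of cells outside the excitatory lineage were highest on array 4 among the E13 arrays. The means of 15 microglial genes were 4.84 to 5.65 at E13 and 4.78 to 5.01 at E16, with 9 of them above background on no cKO array and none passing (1 fell without E13 array 2 and E16 array 3). The means of 15 endothelial genes were 5.16 to 6.64 at E13 and 5.16 to 5.40 at E16, with 5 on no array above background and none passing. In both lists, as in the other 6, array 4 was the highest at E13. Erythroid means (3 genes) were 5.72 to 11.9 at E13 and 6.26 to 8.48 at E16. The haemoglobin gene Hba-a1 had signals of 8.43, 7.59, 8.06, 14 and 9.13 on E13 arrays 1 to 5. It ran from 9.57 to 13.02 on the 6 E16 arrays, with a median of 10.35. It did not pass with all arrays (adjusted p = 0.31) and rose by 2.40 on the log2 scale without E13 array 4 (adjusted p = 0.012). Of 10 meningeal genes 1 rose, Fn1 (1.20 ± 0.24; 2 rose without E13 array 2 and E16 array 3 and 3 without E13 array 4), and 1 fell, Igfbp2 (-1.20 ± 0.21), with means of 6.14 to 7.70 at E13 and 6.51 to 6.93 at E16. Of 4 skeletal muscle genes 2 fell, the myosin light chain Mylpf (-0.90 ± 0.12) and the troponin Tnnt1 (-0.87 ± 0.21), with means of 5.82 to 6.05 at E13 and 5.13 to 5.61 at E16.

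Genes of the choroid plexus and the cortical hem, the medial edge of the cortex, fell in 7 of 9 cases (median -1.18), with list means of 6.48 to 8.03 at E13 and 5.58 to 6.17 at E16. Ttr, the transthyretin made by choroid plexus, had signals of 7.26, 5.02, 4.77, 12.47 and 6.52 on E13 arrays 1 to 5. It ran from 4.51 to 4.92 on the 6 E16 arrays, with a median of 4.75. Its high value was that of array 4, and without it Ttr did not pass (adjusted p = 0.11). Otx2, a homeobox gene of that tissue, had signals of 7.86, 7.68, 8.31, 8.86 and 8.59 on E13 arrays 1 to 5. It ran from 5.53 to 7.13 on the 6 E16 arrays, with a median of 6.25. It changed by -1.99 ± 0.31 (adjusted p = 2.2e-05) and by -1.84 without array 4. The hem ligand Wnt8b was above background on 4 of 5 E13 arrays and no E16 array, at least 1.45-fold lower. Without array 4, 5 of 9 members fell with a median of -0.87.

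Ventral forebrain and interneuron genes had list means of 6.16 to 8.83 at E13, with array 4 highest, and 5.88 to 7.10 at E16, with array 6 highest. Of 12 genes 4 fell with all arrays and 2 without array 4, where the median turned from -0.67 to 0.048. Isl1, a LIM homeobox gene, fell (-1.94 ± 0.54, adjusted p = 0.0092), and by -1.39 without array 4 (adjusted p = 0.044). Dlx1, a homeobox gene of interneurons, read 10.50 on E13 array 4 and 6.39 to 7.85 on the others. Of 9 thalamic and habenular genes 4 fell and none rose. The part of tissue from outside the cortex in these results was not tested beyond leaving out that array.

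Lhx9, a LIM homeobox gene of that last list, had signals of 9.90, 9.40, 9.87, 9.59 and 9.98 on E13 arrays 1 to 5. It ran from 5.60 to 7.51 on the 6 E16 arrays, with a median of 6.83. It was far lower on every E16 array and fell 7.91-fold (-2.98 ± 0.25, adjusted p = 2.8e-09). The bHLH gene Olig3 fell by 1.65 (adjusted p = 4.4e-05), with E13 array 2 at 6.09 and the other E13 arrays between 7.55 and 8.42.

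**Figure D5:**
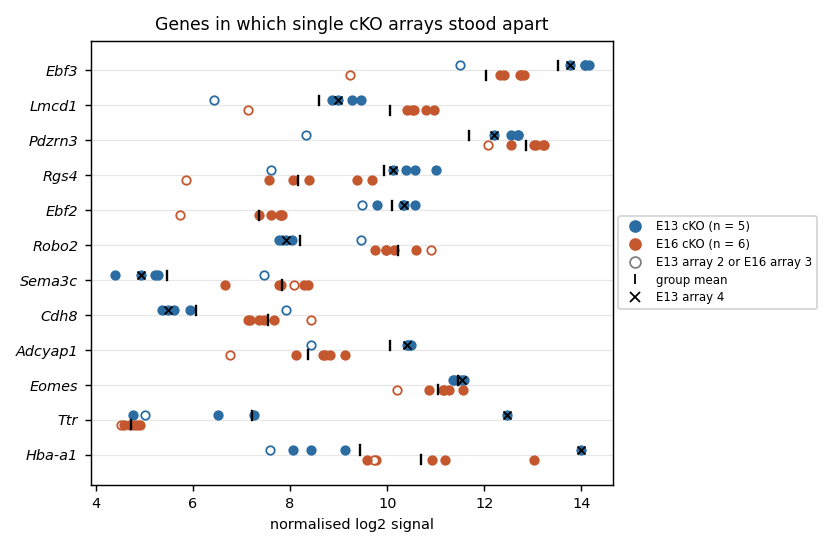
Normalised log2 signal (x axis) on every cKO array for genes in which single arrays stood apart, with E13 in blue (n = 5), E16 in red (n = 6), E13 array 2 and E16 array 3 as open circles, E13 array 4 crossed, and group means as bars. In Ebf3 and Lmcd1 both open circles are the lowest of their groups, and in Ttr and Hba-a1 the crossed circle is the highest of E13.

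The spread within a stage was largest for a few genes. At E13 these were Hba-a1, Hbb-bt and Hbb-bs, highest on array 4, Dlx1, and Pdzrn3, a ubiquitin ligase gene. Pdzrn3 had signals of 12.69, 8.32, 12.70, 12.21 and 12.54 on E13 arrays 1 to 5. It ran from 12.08 to 13.23 on the 6 E16 arrays, with a median of 13.05. Array 2 was more than 3 log2 units below the others, and the stage change of 1.17 ± 0.50 did not pass (adjusted p = 0.089). At E16 the largest spread was in Syne2, Lmcd1, Hbb-bs, Ebf3 and Rgs4. Lmcd1, a LIM domain protein, read 6.43 on E13 array 2 against 8.87 to 9.47 on the others, and 7.13 on E16 array 3 against 10.41 to 10.96. Its rise was 1.46 ± 0.50 (adjusted p = 0.033), and 1.5 without both (adjusted p = 8.4e-07). Rgs4, a regulator of G protein signals, fell (-1.78 ± 0.53), with the same 2 arrays at the low end of their groups.

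Genes that differ by sex were unevenly spread over the stages, and they were looked up after the data were seen. Xist, the RNA of the inactive X chromosome, was above background on 2 of 5 E13 and 5 of 6 E16 arrays, and the Y-linked Eif2s3y and Kdm5d each on 3 of 5 and 1 of 6. Neither Xist (adjusted p = 0.16) nor Eif2s3y (adjusted p = 0.23) passed, and the Y-linked Uty fell by 0.49 (adjusted p = 0.034). The part of sex in the other stage changes was not tested.

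The stage change in the cKO was set against that in the embryo arrays by the interaction of stage and genotype. The age label of the E16 embryo samples reads E13, and their titles, which give E16, were followed. In the embryo arrays 23.8% of genes changed with stage. The cKO and embryo changes of the steepest genes were -6.48 and -5.84 for Fezf1, -5.03 and -4.73 for Dlk1, 4.64 and 3.90 for Sla and 3.34 and 2.71 for Bcl6. For Fezf1 the difference was -0.65 ± 0.75, for Dlk1 -0.30 ± 0.53 and for Sla 0.74 ± 0.54, none of which passed (adjusted p = 1.00 for each).

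Over all genes 2 passed, or 0.0188%, while 380 had an unadjusted p under 0.05 by limma. The 2 were the neuropeptide genes Tac2 and Nts, which were above background on no cKO array. In the embryo arrays Tac2 changed by 1.66 and Nts by -1.28, while no cKO change is given, since the cKO values lay at background and both genes entered the test through other groups. The embryo means of Tac2 at E13 (4.55) and of Nts at E16 (4.87) also lay below the background limits of their arrays, so these changes are no exact folds. No gene passed when detection on 5 of the 11 cKO arrays was required (327 at an unadjusted p under 0.05 by limma). E13 array 2 and E16 array 3 had been set apart by their levels in genes that separate the genotypes, so leaving them out favours genotype differences. Without these 2 arrays 55 genes passed (595 at an unadjusted p under 0.05 by limma). Pdzrn3 was then among them, with a stage change of 0.48 in the cKO and 3.61 in the embryo arrays and a difference of -3.12, and so was Nbl1, with -1.58 and 0.64. On E13 array 2 Pdzrn3 read 8.32 and Nbl1 4.73, and their E13 embryo means were 8.55 and 4.71. The E13 embryo mean of Nbl1 lay below the background limits of those arrays (5.57 to 5.71). Its embryo change and its difference between genotypes therefore include values near background and are no exact folds.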

How the data were processed

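The 27 samples were measured on Illumina BeadChips with 45281 probes. Per the file headers, the deposited intensity values are non-normalised average signals per probe, each with a detection p-value, which the authors deposited beside it. The series matrix holds log2 values that the authors deposited for 12377 probes, with the tool and normalisation not given in the sources used here. Groups came from the sample titles. Signal columns carry the group and a number that matches no replicate number, so arrays are named by column order.

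The signals were processed in R 4.3.3 by limma 3.58.1. The normexp method, whose negative control distribution was inferred through the detection p-values, corrected the background with an offset of 16. Quantile normalisation of the 27 arrays together and a log2 transform followed. Probes stayed in where at least 5 arrays had a detection p under 0.01, which left 20498. By the platform annotation 34885 probes had 1 symbol, 18 several and 10378 none, and 34807 matched RefSeq with 0 changed. Each of 10663 genes was represented by its brightest probe on average. Several probes remained for 4352 genes, and in 32 they changed in opposite directions at an unadjusted p under 0.05 by limma. The linear model gave every group its own mean, used all 27 arrays and was moderated by empirical Bayes. P-values were adjusted by Benjamini-Hochberg over all genes, with calls at an adjusted p under 0.05. The fit was also run on simulated data with independent noise and no array set apart. Of 50 genes at each log2 change of 0.5, 1, 2 and 3 it found 24, 49, 48 and 50. There were 7 false calls among 178. Since the real arrays differ from that setting, the run is no check of the calls made here. Where the printed probe was above background on no array of a stage, the fold is a lower bound against the background limit, given if above 1. Depth does not apply to arrays, and their number limits the precision.

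The rule for naming took Eomes, the 12 steepest rises and 12 steepest falls without overlap between stages (predicted genes left out), up to 4 passing members of each of 48 lists with 739 of 992 entries measured, up to 5 genes per direction above background at 1 stage only, genes with an interaction, and the 5 genes with the largest spread in each stage. Top2a, Cdk1 and Cdc20 were named through the promoter rule, and Plk1, the sex-linked genes, and members named as not passing were chosen after their values were seen. The members and lists were chosen with earlier results of these data known. Same-numbered samples of both stages correlated over 0.1 in 1 of 5 pairs in the series matrix, so the numbers were not taken as pairs.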

Additional observations from a re-analysis of the deposited data

Results flagged for a closer look

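Within a stage, a value was picked out where the gap between the highest or lowest array and the nearest other one exceeded Dixon's 95% limit for that group size. In 360 groups of arrays, 1 for each named gene at each stage, 49 values were picked out. Chance alone picks out a value in about 1 in 20 groups. Some of these genes were named for a large spread within a stage, so the number is no test. E13 array 2 held 16 of them, E16 array 3 held 11 and E13 array 4 held 6. Each value is set against the range of the other arrays of its stage.

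E13 array 2 was lower than the rest where Dlk1 read 10.90 against 12.42 to 12.75, Pdzrn3 read 8.32 against 12.21 to 12.70 and Lmcd1 read 6.43 against 8.87 to 9.47. Further values lower than the rest came where Ebf3 read 11.49 against 13.76 to 14.15, Rgs4 read 7.61 against 10.13 to 10.99 and Zfpm2 read 10.07 against 10.88 to 11.06. It was also lower where Nrp1 read 11.41 against 12.17 to 12.29, Grin3a read 7.84 against 8.99 to 9.34 and Adcyap1 read 8.44 against 10.40 to 10.50. Further values lower than the rest came where Fgf9 read 4.92 against 6.2 to 6.39, Prox1 read 7.52 against 8.14 to 8.38 and Ebf1 read 7.38 against 8.61 to 8.66. E13 array 2 was higher than the rest where Bcl6 read 7.22 against 5.85 to 6.23, Robo2 read 9.47 against 7.77 to 8.04 and Sema3c read 7.47 against 4.39 to 5.28. Further values higher than the rest came where Cdh8 read 7.91 against 5.36 to 5.95. E16 array 3 was lower than the rest where Lmcd1 read 7.13 against 10.41 to 10.96, Ebf3 read 9.24 against 12.31 to 12.82 and Smoc1 read 7.96 against 8.92 to 9.36. Further values lower than the rest came where Ebf2 read 5.73 against 7.37 to 7.83, Rprm read 11.48 against 11.75 to 11.88 and Efna5 read 8.56 against 9.41 to 9.92. It was also lower where Nbl1 read 5.09 against 5.64 to 5.83. E16 array 3 was higher than the rest where Fezf1 read 7.70 against 4.69 to 5.17, Tac2 read 5.52 against 4.47 to 4.75 and Tshz2 read 6.60 against 5.15 to 5.52. Further values higher than the rest came where Eno2 read 9.72 against 9.24 to 9.42.

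E13 array 4 was lower than the rest where Msmo1 read 10.79 against 11.04 to 11.09. E13 array 4 was higher than the rest where Hba-a1 read 14 against 7.59 to 9.13, Hbb-bt read 13.03 against 7.60 to 9.01 and Hbb-bs read 12.42 against 7.72 to 8.55. Further values higher than the rest came where Tnc read 5.22 against 4.64 to 4.72 and Npy read 7.53 against 5.95 to 6.22. E16 array 5 was lower than the rest where Sla read 9.38 against 10.25 to 10.66, Ldb2 read 8.51 against 9.70 to 10.17 and Rps14 read 14.20 against 14.40 to 14.49. E16 array 5 was higher than the rest where Sox3 read 5.78 against 4.93 to 5.19 and Tnnt1 read 6.33 against 4.76 to 5.32. E13 array 3 was lower than the rest where Fzd7 read 6.28 against 6.59 to 6.69. E13 array 3 was higher than the rest where Grid2ip read 5.20 against 4.52 to 4.70 and Slc2a3 read 9.0 against 8.67 to 8.77. E16 array 6 was lower than the rest where Sema3c read 6.65 against 7.78 to 8.37 and Camk2a read 5.29 against 5.68 to 5.84. E16 array 6 was higher than the rest where Dlx1 read 8.99 against 6.2 to 7.24. E13 array 5 was lower than the rest where Cux2 read 8.79 against 9.27 to 9.38 and Rarg read 4.95 against 5.45 to 5.59. E13 array 1 was lower than the rest where Gria2 read 10.83 against 11.57 to 11.81. E16 array 2 was higher than the rest where Gabra3 read 5.76 against 5.40 to 5.51. E16 array 4 was higher than the rest where Elfn1 read 5.59 against 4.72 to 4.99.

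The interaction test of stage and genotype passed for 2 genes whose cKO values lay at background. The cKO change minus the embryo change was -1.42 for Tac2 (adjusted p = 0.031) and 1.34 for Nts (adjusted p = 0.031), by limma over all 10663 genes. Neither gene was above background on any of the 11 cKO arrays, and no gene passed when detection on 5 of these was required (327 at an unadjusted p under 0.05 by limma).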

How the results depend on the processing

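Of 180 named genes 171 passed, and 135 of these were called in the same direction under every alternative that gave a value. The alternatives were other background correction, scaling, filters, probe rules, moderation, array weights and sets of arrays. The change of Nts was -0.047 without E16 array 3, of opposite sign to its value with all arrays, and ran from -0.047 to 0.15 when 1 array was left out. That of Dlx1 was 0.14 without E13 array 4, also of opposite sign, and ran from -0.97 to 0.14, and neither gene passed. Rising genes numbered 582 under median scaling against 1242, which moved the median of all genes from -0.0081 to -0.080, and 1007 to 1236 when 1 cKO array was left out. Falling genes numbered 1246 to 1487 when 1 array was left out. In the series matrix with only the cKO groups, 776 genes rose and 846 fell, and with the replicate number as a block 490 rose and 536 fell. Those numbers do not pair the samples. The matrix fits were chosen in part after seeing the data (the one without the block), and they test fewer genes. List members that rose numbered 110, and 73 under median scaling, 69 in the matrix without the replicate block and 55 with it. List members that fell numbered 172, and 88 in the matrix with all groups, 83 in its cKO groups without the replicate block and 61 with it. Leaving out 1 array gave 90 to 111 list members rising and 146 to 173 falling. Genes with a difference between genotypes numbered 2, and 0 without normexp, under median scaling, in the matrix, without the P2 neurons, without a filter, and with detection in 5 of 11 arrays or in every array of a group, settings in which 243 to 640 genes had an unadjusted p under 0.05 by limma. They numbered 10 with array weights and 55 without E13 array 2 and E16 array 3. Leaving out 1 array gave 0 to 50 (50 without E13 array 2, 15 without E16 array 3). Both of these arrays lay at embryo levels in genes that separate the genotypes, so leaving them out favours such differences. For Eomes the change ran from -0.53 to -0.26 when 1 array was left out, and it passed at -0.53 without E16 array 6 (adjusted p = 0.046) and at -0.60 as the mean of all probes (adjusted p = 0.020). The cause of these shifts was not tested. A block for slide or scan was not run, since no slide is given in the files. Genes near background have only bounds, and 6 arrays a group at most limit small changes.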
